A study of Mus musculus with 18 samples.

Results

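Expression of 9 genes of the oligodendrocyte lineage was examined in neural stem cell (NSC) cultures and in astrocytes made from them. The genes are given as a list, and none was left out for its values: the transcription factor genes Olig1, Olig2, Sox10 and Myrf, the progenitor surface genes Pdgfra and Cspg4, the committed precursor gene Gpr17, and the myelin protein genes Cnp and Mbp. All 9 were found among the 27997 genes of the deposited expression table. The 18 libraries came from 3 mouse lines with 2 fates each, and each of the 6 groups had 3 replicates. The tdTomato and EYFP lines (genotypes DNGR-1 +/- Tom+/- and DNGR-1 +/- EYFP+/-) were grown from spinal cord neurospheres and sorted for the reporter, which a Cre recombinase under the DNGR-1 (Clec9a) gene had switched on in the animal. The hippocampal line (genotype DNGR-1+/+) came from the hippocampus of GlastCre mice that also carried a floxed Huwe allele and a ROSA-LSL-EYFP reporter, and the labels do not say whether these alleles had been recombined. NSCs were kept adherent for 4 days with 20 ng/ml bFGF and 20 ng/ml EGF. Astrocytes were collected at day 6 of culture after a change to medium with 20 ng/ml BMP4 and without these growth factors, so the addition of BMP4, the loss of bFGF and EGF and the longer culture cannot be told apart. Each group was 1 line, and its replicates were cultures of passages 10, 11 and 12. The p-values therefore measure the spread between cultures of a line and not between animals.

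In the central nervous system, oligodendrocytes arise from progenitors that divide in response to platelet-derived growth factor through the receptor Pdgfra and carry the proteoglycan Cspg4 (NG2) on their surface. The basic helix-loop-helix factors Olig1 and Olig2 specify these cells, Sox10 acts with them, and Myrf is switched on at the end of the progenitor stage and drives the myelin genes. BMP signalling is known to turn such progenitors away from the oligodendrocyte fate and towards astrocytes. Olig1, Olig2 and Cspg4 are also found in NSCs grown with growth factors, so none of these genes alone marks an oligodendrocyte progenitor, and Cspg4 and Pdgfra are in addition expressed by pericytes and by fibroblasts, respectively.

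Values are log2 normalized expression, as deposited. They have the form of a regularized log, in which a weakly expressed gene is pulled towards its own mean, so that the value of an undetected gene differs from gene to gene and small counts give understated changes. Depth behind a value is not given by the table, and only the spread between replicates is used as error. Differences were tested with limma over all genes with a value of 3.32 or more (10 when not logged) in 3 or more libraries of the comparison, with a threshold of 0.05 on the adjusted p. Of the 9 genes, 6 reached this level in all 18 libraries, Gpr17 in 10, Mbp in 3 and Sox10 in none. Expression was measured in bulk, so fewer cells of a kind and less RNA per cell cannot be told apart.

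Gfap, the intermediate filament of astrocytes, went with the fate labels and lay between 8.96 and 9.44 in NSCs and between 14.69 and 16.66 in astrocytes. The tdTomato line differed from the other lines in sex-linked genes as well. Xist, which is transcribed from the inactive X chromosome, was 13.09 to 14.99 in its libraries and 5.04 to 5.59 in the others, so sex and line cannot be told apart for this line. None of the 9 genes lies on a sex chromosome.

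The 5′ flanks of genes that moved with fate in every line are shown first, with letter patterns of SMAD proteins marked because BMP4 was the differentiation agent. RefSeq (GRCm38.p6) gave a promoter for 4 of the 9 genes. The stretches end at the base before the earliest annotated start, and capitals mark GGCGCC, a letter pattern bound by SMAD proteins downstream of BMP receptors, and CAGAC on either strand (GTCTG), the pattern known as the SMAD box.
Olig2, chr16:91225300-91225456, plus strand: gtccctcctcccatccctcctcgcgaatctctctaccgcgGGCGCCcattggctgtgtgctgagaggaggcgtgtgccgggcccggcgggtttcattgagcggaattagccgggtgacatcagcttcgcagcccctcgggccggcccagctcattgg
Cspg4, chr9:56864854-56865032, plus strand: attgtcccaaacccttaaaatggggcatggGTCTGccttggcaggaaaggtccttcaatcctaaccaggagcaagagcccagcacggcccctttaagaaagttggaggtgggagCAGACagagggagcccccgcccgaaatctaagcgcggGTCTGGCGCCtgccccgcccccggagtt
Pdgfra, chr5:75152001-75152250, plus strand: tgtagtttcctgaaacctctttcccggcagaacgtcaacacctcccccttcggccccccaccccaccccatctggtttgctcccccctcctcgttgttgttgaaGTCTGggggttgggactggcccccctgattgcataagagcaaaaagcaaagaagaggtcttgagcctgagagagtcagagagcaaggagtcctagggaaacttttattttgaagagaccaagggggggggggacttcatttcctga
Cnp, chr11:100574689-100574903, plus strand: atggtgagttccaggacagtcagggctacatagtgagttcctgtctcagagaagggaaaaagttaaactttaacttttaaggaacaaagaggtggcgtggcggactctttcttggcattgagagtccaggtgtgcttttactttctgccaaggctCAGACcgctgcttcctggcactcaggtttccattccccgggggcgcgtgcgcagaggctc
In the 250 bases before the RefSeq start, GGCGCC was found 2 times for Olig2, of which 1 lies in the printed stretch, and 1 time for Cspg4. In Cspg4 it overlaps a GTCTG by 1 base. CAGAC in either strand was found 3 times for Cspg4, 1 time each for Pdgfra and Cnp and not for Olig2. Among 32851 promoter windows of the same length, 9.6% held GGCGCC and 42.2% held CAGAC. The E-box letters CANNTG, which basic helix-loop-helix factors such as Olig2 bind, were present 1 time each in Pdgfra and Cnp, and in 66.2% of all windows. These are matches of letters and no binding was measured.

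Over all 18 libraries, 2 of the 9 genes were higher in astrocytes than in NSCs and 4 were lower, with 8 tested (limma with line as a covariate). In the same comparison 81.9% of all 15448 genes tested passed the threshold, 42.1% of them being higher and 39.8% lower as shares of the genes tested, so a passed test is common and the sizes of the changes carry more information. The median absolute difference of the 8 genes was 1.14 on the log2 scale, against 0.50 over all genes tested. Olig1, Olig2, Cspg4 and Pdgfra fell and Cnp rose in each line, whereas Myrf rose in both traced lines and fell in the hippocampal line. Within single lines, 2 genes rose and 4 fell of 6 tested in the tdTomato line, where 79.3% of all genes tested passed (39.9% higher, 39.5% lower). In the EYFP line 2 rose and 4 fell of 7 tested (74.9% of all genes, 37.5% higher, 37.4% lower), and in the hippocampal line 2 rose and 5 fell of 8 (77.3%, 39.2% higher, 38.2% lower). Of the 2 that rose there, Mbp entered the test through the group where it was high.

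**Figure D1:**
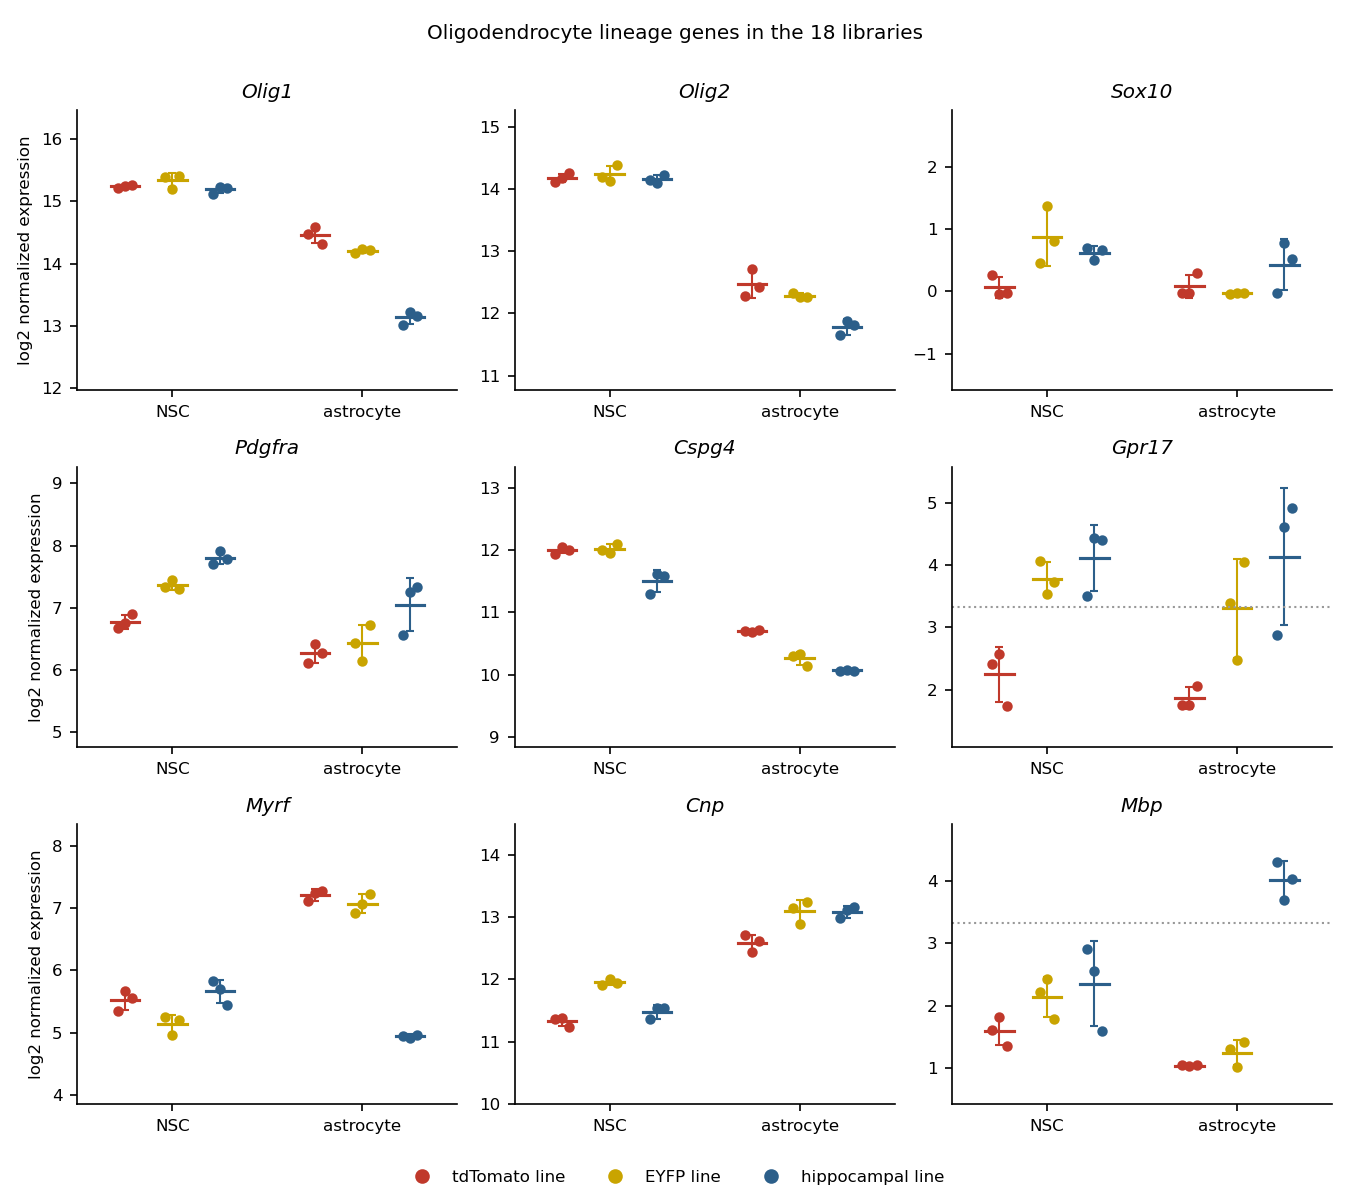
Log2 normalized expression (y axis) of the 9 genes in NSCs and astrocytes (x axis) of the 3 lines, with 1 point per library and the mean and SD of 3 replicates as bars; panels have y axes of the same span, and the dotted line in the Gpr17 and Mbp panels is the filter of 3.32. Olig1, Olig2, Cspg4 and Cnp separated NSCs from astrocytes in every line, while Myrf was low, between 4.92 and 4.97, in the hippocampal astrocytes and Mbp passed the filter in these libraries alone.

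Olig1 and Olig2, neighbouring genes on chromosome 16 that encode basic helix-loop-helix factors, were among the most strongly expressed genes of the cultures. Olig2 lies at chr16:91225457-91228677 and Olig1 at chr16:91269772-91271933 (GRCm38, both protein-coding and on the plus strand), 41095 bases apart. Their median values stood at the 99.3 and 99.9 percentiles of all genes in the table.

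Olig2 was 14.11, 14.18 and 14.25 in tdTomato NSCs, 14.19, 14.12 and 14.38 in EYFP NSCs and 14.14, 14.10 and 14.22 in hippocampal NSCs. In astrocytes it was 12.28, 12.72 and 12.43 (tdTomato), 12.33, 12.27 and 12.27 (EYFP) and 11.65, 11.88 and 11.82 (hippocampal). The lines overlapped as NSCs, NSCs and astrocytes did not overlap, and hippocampal astrocytes were below both traced groups. Over all lines Olig2 fell by 2.01 ± 0.085 on the log2 scale (SE, limma, adjusted p = 2.67e-13), which is 4.02-fold. The fall was 1.70 for tdTomato, 1.94 for EYFP and 2.37 for hippocampal cultures.

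Olig1 was 15.22, 15.25 and 15.26 in tdTomato NSCs, 15.39, 15.20 and 15.41 in EYFP NSCs and 15.12, 15.23 and 15.22 in hippocampal NSCs. After differentiation the values were 14.48, 14.59 and 14.32 (tdTomato), 14.17, 14.24 and 14.22 (EYFP) and 13.02, 13.23 and 13.16 (hippocampal). NSC values of the 3 lines overlapped, and astrocyte values fell into an order with tdTomato highest and hippocampal lowest, without overlap. Olig1 fell by 0.78 (tdTomato), 1.13 (EYFP) and 2.05 (hippocampal), all on the log2 scale (limma, adjusted p = 7.16e-06, 4.12e-07 and 1.86e-09). A stretch of Olig1 that makes up 3.98% of its 75-base windows is shared with the opposite-strand gene Gm15966, and the strand setting of the counting is not given in the sources used here.

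Sox10 (chr15:79154908-79165240, minus strand), whose product acts with Olig2 throughout the lineage, was weak in every library. It was 0.26, -0.04 and -0.03 in tdTomato NSCs, 0.45, 1.37 and 0.81 in EYFP NSCs and 0.69, 0.50 and 0.67 in hippocampal NSCs. Astrocytes held -0.03, -0.03 and 0.29 (tdTomato), -0.05, -0.03 and -0.02 (EYFP) and -0.02, 0.78 and 0.52 (hippocampal). In 8 of the 18 libraries the value was within 0.05 of the gene's lowest, and the highest was 1.37. Sox10 was therefore not tested, and Olig1 and Olig2 stood near the top of the table in cultures where Sox10 stayed below the filter.

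Myrf (chr19:10208272-10240748, minus strand), which encodes the membrane-bound factor that starts the myelin programme, changed in opposite directions in the traced and the hippocampal lines. In tdTomato cultures it was 5.35, 5.67 and 5.56 as NSCs and 7.11, 7.25 and 7.28 as astrocytes. EYFP cultures gave 5.25, 4.96 and 5.20, then 6.92, 7.07 and 7.22. Hippocampal cultures gave 5.83, 5.70 and 5.45, then 4.95, 4.92 and 4.97. Groups did not overlap within any line, and all 6 traced astrocyte libraries lay above all NSC libraries while the 3 hippocampal ones lay within 0.05 of the lowest NSC library. Myrf was 3.22-fold higher in tdTomato astrocytes (log2 difference 1.69 ± 0.12, SE, limma, adjusted p = 1.39e-06) and 3.82-fold higher in EYFP astrocytes (1.94 ± 0.14, adjusted p = 1.11e-06). In the hippocampal line it fell by 0.72 ± 0.15, or 1.64-fold (adjusted p = 0.00177). The rise of 0.97 over all lines (adjusted p = 0.00639) is an average of these opposite changes.

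Cspg4 (chr9:56865033-56899870, plus strand), the NG2 proteoglycan, fell in each line. It was 11.94, 12.04 and 12.00 in tdTomato NSCs, 12.00, 11.95 and 12.10 in EYFP NSCs and 11.29, 11.62 and 11.58 in hippocampal NSCs. The astrocyte values were 10.70, 10.69 and 10.72 (tdTomato), 10.30, 10.33 and 10.14 (EYFP) and 10.06, 10.08 and 10.06 (hippocampal). Hippocampal cultures were lowest in either fate, without overlap with the traced lines. Over all lines the fall was 1.49 ± 0.06 (SE, limma, adjusted p = 2.09e-13), a 2.81-fold difference, and by line it was 1.29, 1.76 and 1.43 in the order tdTomato, EYFP, hippocampal.

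Pdgfra (chr5:75152292-75198215, plus strand), the receptor through which progenitors receive their mitogen, was much less abundant. NSC values were 6.68, 6.75 and 6.90 (tdTomato), 7.34, 7.44 and 7.30 (EYFP) and 7.71, 7.91 and 7.79 (hippocampal), an order of lines without overlap. Astrocyte values were 6.11, 6.42 and 6.27 (tdTomato), 6.44, 6.15 and 6.72 (EYFP) and 6.56, 7.25 and 7.34 (hippocampal). Astrocytes were below NSCs of their own line in every case, but the ranges of the fates over all lines overlapped. Pdgfra fell by 0.51, 0.92 and 0.76 in the tdTomato, EYFP and hippocampal lines (limma, adjusted p = 0.00385, 0.00027 and 0.00385). Among its 75-base windows, 4.05% are shared with the opposite-strand genes Gm42802 and Gm42803.

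Gpr17 (chr18:31942997-31949636, minus strand), a receptor of committed precursors that have left the cell cycle but not yet made myelin, was weak and variable. In NSCs it was 2.42, 2.58 and 1.74 (tdTomato), 4.06, 3.54 and 3.73 (EYFP) and 3.50, 4.43 and 4.41 (hippocampal). In astrocytes it was 1.76, 1.76 and 2.06 (tdTomato), 3.39, 2.47 and 4.05 (EYFP) and 2.88, 4.62 and 4.91 (hippocampal). The tdTomato line stayed below the filter in all its libraries, and the fates overlapped in every line. No change passed the test over all lines (log2 difference -0.28, 95% confidence interval from -0.84 to 0.28, limma, adjusted p = 0.342), in the EYFP line (-0.47, from -1.29 to 0.35) or in the hippocampal line (0.02, from -1.08 to 1.12), and these intervals leave room for changes of over 2-fold within a line. With quantile normalization the difference over all lines was -0.61 and passed (adjusted p = 0.0395). Without EYFP astrocyte replicate 3 the EYFP difference was -0.85 and passed (adjusted p = 0.0457). Gpr17 lies within Lims2, a gene of the other strand, and shares 0.96% of its 75-base windows with it.

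Cnp (chr11:100574904-100591729, plus strand), an enzyme of uncompacted myelin that is made from the precursor stage on, was abundant in NSCs and rose in each line. The NSC values were 11.36, 11.38 and 11.24 (tdTomato), 11.91, 12.00 and 11.94 (EYFP) and 11.36, 11.54 and 11.54 (hippocampal). Astrocytes gave 12.71, 12.44 and 12.61 (tdTomato), 13.14, 12.89 and 13.25 (EYFP) and 12.98, 13.12 and 13.17 (hippocampal). Every astrocyte library was above every NSC library. The rise over all lines was 1.34 ± 0.07 (SE, limma, adjusted p = 3.82e-12), 2.52-fold, with 1.26, 1.14 and 1.61 in the tdTomato, EYFP and hippocampal lines. The gene shares 2.33% of its 75-base windows with Dnajc7 on the other strand.

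Mbp (chr18:82475146-82585637, plus strand), a major protein of compact myelin, reached the filter in the hippocampal astrocytes alone. Its values were 1.61, 1.81 and 1.36 in tdTomato, 2.22, 2.42 and 1.79 in EYFP and 2.91, 2.56 and 1.59 in hippocampal NSCs. The astrocyte libraries held 1.04, 1.03 and 1.04 (tdTomato), 1.30, 1.02 and 1.41 (EYFP) and 4.31, 3.69 and 4.03 (hippocampal). Traced astrocytes lay at or near the gene's lowest value of 1.02, below the NSCs of their line without overlap, while hippocampal astrocytes lay above theirs. Without the filter the difference was -0.56 in the tdTomato and -0.90 in the EYFP line, between values that were all below it. A gene that enters the test only through the group where it is high had to differ there, so the hippocampal rise of 1.65 (95% confidence interval from 0.88 to 2.43, limma, adjusted p = 0.00153) is a description rather than independent support. It was 0.77 when 10 was added on the linear scale. Over all lines Mbp did not pass (0.07, 95% confidence interval from -0.61 to 0.74, adjusted p = 0.852). Even at its highest, 4.31, Mbp was far below Cnp, and per kilobase of exons Cnp averaged 11.22 and Mbp 0.93 on the log2 scale in hippocampal astrocytes.

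**Figure D2:**
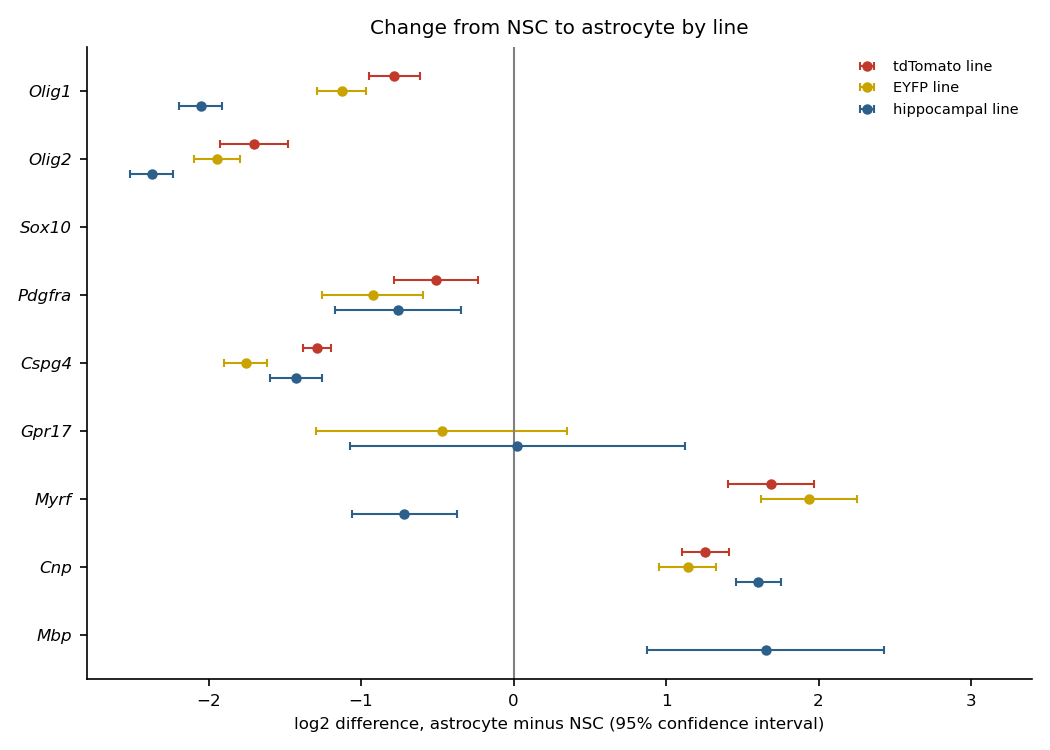
Log2 difference between astrocytes and NSCs of each line (x axis) for the 9 genes (y axis), with 95% confidence intervals from limma, 6 libraries per line; genes with no point did not reach the filter in that line. Olig1, Olig2, Pdgfra and Cspg4 lie left of 0 and Cnp right of 0 in every line, and Myrf lies at 1.69 and 1.94 in the traced lines and at -0.72 in the hippocampal line.

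Corrected for exon length, the mean log2 level per kilobase over the 9 NSC libraries followed the order Olig1 (14.14), Olig2 (12.85), Cnp (9.72), Cspg4 (8.26), Pdgfra (3.99), Myrf (2.34) and Gpr17 (1.00), with Mbp (-1.05) and Sox10 (-1.09) last. Mbp and Sox10 were below the filter in all NSC libraries, so their order to each other is not one of abundance. In astrocytes the order depended on the line. Cnp was below Olig2 in the tdTomato line (10.72 and 11.14) and above it in the EYFP (11.23 and 10.95) and hippocampal lines (11.22 and 10.44). Myrf was above Pdgfra in the tdTomato (4.11 and 2.94) and EYFP lines (3.97 and 3.11) and below it in the hippocampal line (1.85 and 3.73). In the median over libraries, uncorrected for length, the 9 genes ran from the 99.9 percentile of the table (Olig1) to the 31.8 percentile (Sox10).

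A further test asked whether the size of the change differed between lines, with an interaction term in a fit to the 18 libraries. The tdTomato and EYFP comparisons with the hippocampal line share the hippocampal libraries and are not independent. Of 8 genes tested, 3 had a higher and 2 a lower change in the tdTomato than in the hippocampal line (of all genes 45.3% passed, 19.4% higher and 25.9% lower). In the EYFP line 3 had a higher and 3 a lower change than in the hippocampal line (38% of all genes, 17% higher and 21% lower). Both counts of lower changes include Mbp, with the limit given above. The traced lines differed from each other in 2 of the 8 genes, both higher in tdTomato (13.3% of all genes, 6.36% higher and 6.98% lower). The smaller loss of Olig1 in traced cultures amounted to a log2 difference of 1.27 for tdTomato and 0.92 for EYFP against hippocampal (limma, adjusted p = 2.24e-08 and 1.31e-06). For Olig2 the difference was 0.67 and 0.43 (adjusted p = 0.000322 and 0.0121), and for Myrf it was 2.40 and 2.65 (adjusted p = 1.61e-08 and 8.05e-09). Cnp rose less in the traced lines, by a difference of -0.35 and -0.46 (adjusted p = 0.0237 and 0.00498). The first of these was lost with quantile normalization (-0.24, adjusted p = 0.104) and without tdTomato NSC replicate 2 or hippocampal NSC replicate 1, or tdTomato astrocyte replicate 2 or hippocampal astrocyte replicate 3, where it lay between -0.32 and -0.28.

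The changes of Pdgfra did not pass this test for any pair of lines, with 95% confidence intervals from -0.26 to 0.76 (tdTomato against hippocampal), from -0.68 to 0.34 (EYFP against hippocampal) and from -0.09 to 0.93 (tdTomato against EYFP). Cspg4 fell further in the EYFP line than in the hippocampal line, by a difference of -0.33 (limma, adjusted p = 0.0127), and less in the tdTomato than in the EYFP line, by 0.47 (adjusted p = 0.00421). The Olig1 difference between the traced lines was 0.35 (adjusted p = 0.0293), and it missed the threshold with quantile normalization and without any 1 of 7 libraries (tdTomato NSC replicates 2 and 3, EYFP NSC replicates 1 and 3, tdTomato astrocyte replicate 2 and EYFP astrocyte replicates 1 and 3), with values between 0.28 and 0.35 and an adjusted p of up to 0.0839. For Cspg4 the difference between the tdTomato and hippocampal lines was 0.14 (adjusted p = 0.259), and it passed, at 0.24, without hippocampal NSC replicate 1 (adjusted p = 0.0153).

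Before differentiation no pair of lines passed the test for Olig1 or Olig2. As NSCs, 1 gene was higher and 2 lower in the tdTomato than in the hippocampal line of 7 tested (42.3% of all genes passed, 23% higher and 19.2% lower). In the EYFP against the hippocampal line 2 of 7 were higher and 2 lower (27.6%, 14.6% higher and 13% lower), and 3 of 7 were lower in the tdTomato than in the EYFP line (33.2%, 18% higher and 15.2% lower). Both counts against tdTomato include Gpr17, with the limit given with its values. For Olig2 the 95% confidence intervals ran from -0.09 to 0.14, from -0.08 to 0.23 and from -0.21 to 0.10, and for Olig1 from -0.06 to 0.17, from -0.01 to 0.30 and from -0.24 to 0.05, in the same order. No interval reached beyond 0.30 on the log2 scale. Without EYFP replicate 2, Olig1 was 0.21 higher in EYFP than in hippocampal NSCs and passed (adjusted p = 0.0421). The surface genes did differ: Pdgfra was lower by 1.03 in tdTomato and by 0.45 in EYFP NSCs than in hippocampal NSCs (limma, adjusted p = 2.67e-05 and 0.00433), and Cspg4 was higher by 0.50 and 0.52 (adjusted p = 0.000768 and 0.00188). The hippocampal line was thus highest of the 3 lines in the progenitor receptor and lowest in the proteoglycan.

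Gpr17 was below the filter in all tdTomato NSCs and above it in all EYFP and hippocampal NSCs, so it entered these tests through the higher group alone and had to differ. As a description, the tdTomato mean was 1.87 below the hippocampal and 1.53 below the EYFP mean, and the differences were -0.89 and -0.68 with 10 added on the linear scale. Cnp was highest in EYFP NSCs, by 0.47 against hippocampal NSCs (adjusted p = 0.000353) and by 0.63 against tdTomato NSCs (adjusted p = 7.65e-05). Myrf was 0.53 lower in EYFP than in hippocampal NSCs (adjusted p = 0.0313), and this was lost when EYFP replicate 1 or 2 or hippocampal replicate 1 or 2 was left out, with values between -0.59 and -0.44 (adjusted p between 0.0531 and 0.109). Differences that did not pass were those of Myrf between the traced lines, 0.39 (adjusted p = 0.0716), which passed at 0.48 without tdTomato replicate 1 (adjusted p = 0.0495), and of Cnp between tdTomato and hippocampal NSCs, -0.15 (adjusted p = 0.0631), which passed at -0.19 with median centring, at -0.17 with quantile normalization and at -0.22 without hippocampal replicate 1 (adjusted p = 0.0263, 0.0465 and 0.0115).

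As astrocytes both traced lines stood further from the hippocampal line, and closer to each other, in the share of all genes that passed. The tdTomato libraries were higher than the hippocampal ones in 4 genes and lower in 3 of the 7 tested (55% of all genes passed, 25.3% higher and 29.7% lower). The EYFP libraries were higher in 4 and lower in 2 of 8 (47.2%, 21.6% higher and 25.6% lower), 6 in all, and 3 in all without hippocampal replicate 2 or 3. Lower genes in both comparisons with the hippocampal line include Mbp. Between the traced lines 1 gene was higher and 1 lower of 6 (11.2%, 5.6% higher and 5.63% lower). Olig1 was 2.50-fold higher in tdTomato and 2.10-fold higher in EYFP astrocytes (log2 differences 1.32 and 1.07, limma, adjusted p = 2.03e-06 and 1.08e-06). Olig2 was higher by 0.69 and 0.50 (adjusted p = 0.000539 and 0.000143). Myrf was 4.81-fold higher in tdTomato and 4.36-fold higher in EYFP than in hippocampal astrocytes (adjusted p = 8.58e-07 and 1.65e-06). The 3 tested transcription factor genes were thus all higher in traced astrocytes.

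Of the surface genes, Cspg4 was higher in traced astrocytes as well and Pdgfra was not. Pdgfra was lower by 0.78 in tdTomato and by 0.62 in EYFP astrocytes (limma, adjusted p = 0.00969 and 0.0425), the latter with overlapping groups and lost in 8 alternatives. Among these, the difference was -0.47 without hippocampal replicate 3, -0.52 without hippocampal replicate 2, -0.62 without EYFP replicate 1 and -0.47 without EYFP replicate 2 (adjusted p between 0.0855 and 0.145). Cspg4 was higher by 0.64 and 0.19 (adjusted p = 2.68e-06 and 0.0267), and the smaller value missed the threshold when any 1 of the 3 hippocampal libraries or EYFP replicate 1 or 2 was left out (adjusted p between 0.0575 and 0.0854). Cnp was lower by 0.50 in tdTomato astrocytes than in hippocampal astrocytes (adjusted p = 0.000502) and did not differ detectably between EYFP and hippocampal astrocytes (0.01, 95% confidence interval from -0.19 to 0.21). As a description, since it was tested through the hippocampal libraries alone, Mbp gave differences of -2.97 and -2.77, or of -1.12 and -1.08 with 10 added on the linear scale. Between the traced lines, Cspg4 was 0.45 higher and Cnp 0.51 lower in tdTomato astrocytes (adjusted p = 0.00152 and 0.0105), while for Myrf the interval was -0.11 to 0.39. Olig1 was 0.25 higher in tdTomato than in EYFP astrocytes without passing (adjusted p = 0.0603), and it passed at 0.32 without tdTomato replicate 3 (adjusted p = 0.027). It also passed at 0.29 with quantile normalization, and at 0.25 with a replicate block and with 6 groups fitted over all 18 libraries (limma, adjusted p = 0.0416, 0.00818 and 0.0211). Gpr17 differed by -0.83 between EYFP and hippocampal astrocytes (95% confidence interval from -2.07 to 0.41), and -1.46 without hippocampal replicate 1 (adjusted p = 0.0225).

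**Figure D3:**
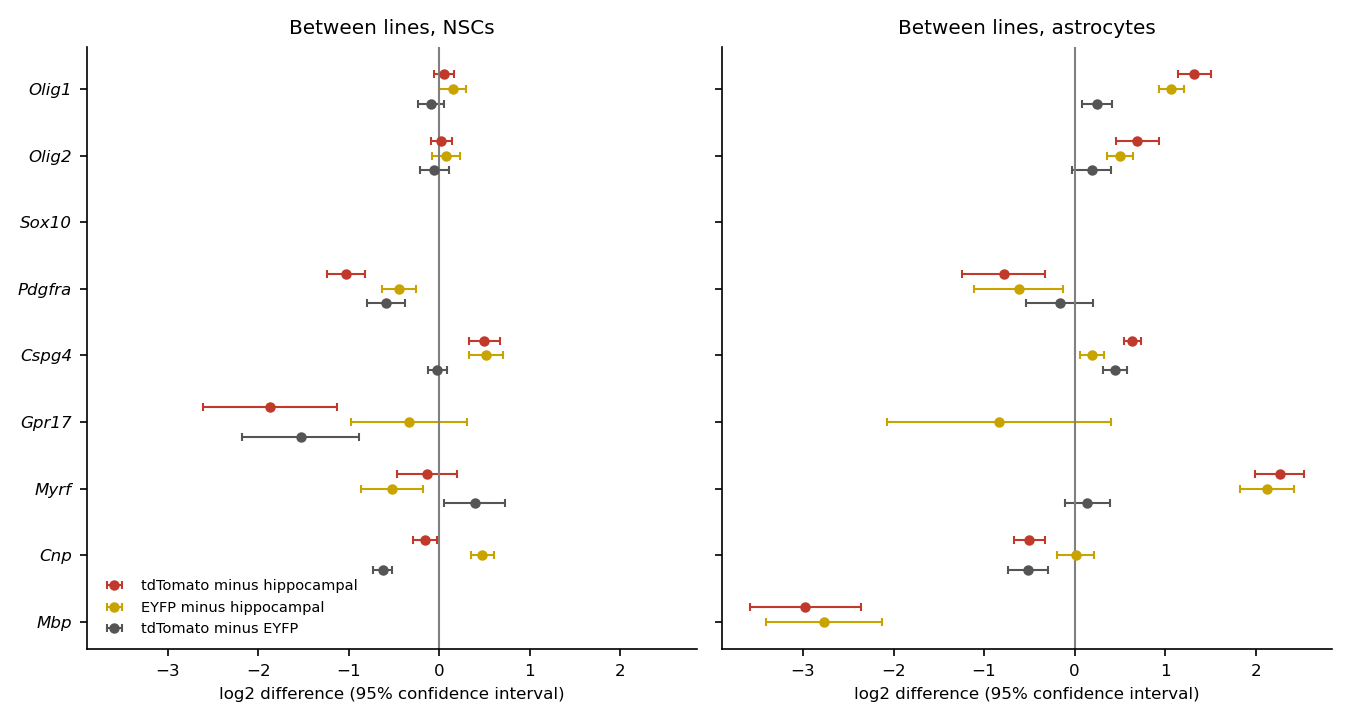
Log2 differences between pairs of lines (x axis) for the 9 genes (y axis) among NSCs (left) and astrocytes (right), with 95% confidence intervals from limma, 3 libraries per group; genes with no point did not reach the filter. Olig1 and Olig2 lie near 0 among NSCs, and Olig1, Olig2 and Myrf lie right of 0 among astrocytes for both traced lines against the hippocampal line.

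Other genes of the lineage were taken from fixed lists. Of 14 further precursor genes, 13 were tested over all lines, 8 fell and 4 rose (of all genes 39.8% and 42.1%), with a median log2 difference of -0.96 against 0.02 over all genes. The largest fall was that of Myt1, a zinc finger factor of progenitors (-3.39, limma, adjusted p = 1.24e-08), followed by Nkx2-2, a homeodomain factor (-2.33, adjusted p = 5.32e-12), Pcdh15, a protocadherin (-2.26, adjusted p = 1.29e-07), and Sox8, a close relative of Sox10 (-1.46, adjusted p = 4.31e-09). Cspg5, Cacng4, Vcan and Ptprz1 fell by 0.87 to 1.20. Among those that rose were C1ql1 (3.71) and Gpr37l1 (1.04), and Lhfpl3 did not pass (0.13, adjusted p = 0.266). Gpr37l1 is also an astrocyte gene. Matn4, also counted as higher, reached the filter in hippocampal libraries alone. It was tested in no pair of NSC groups, so it entered through the astrocytes and its rise is a description. Neu4 was below the filter in every library.

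Sox8 differed from Sox10 in level. It was 11.76 to 12.43 in NSCs and 9.86 to 10.91 in astrocytes, and it fell by 0.99, 1.34 and 2.04 in the tdTomato, EYFP and hippocampal lines, the same order of lines as for Olig1 and Olig2.

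Among 12 genes of the committed stage, 10 were tested over all lines, 6 rose and 4 fell. Enpp6, an early enzyme of newly formed oligodendrocytes, was 2.65 to 3.58 in NSCs and 5.02 to 7.26 in astrocytes, and Sirt2 rose by 0.98 (limma, adjusted p = 5.74e-11). Bcas1, which marks the same stage in tissue, went the other way and fell by 2.29 (adjusted p = 2.03e-15), together with Itpr2 (-1.14, adjusted p = 9.83e-11). In this comparison 42.1% of all genes were higher and 39.8% lower, so this split is near that of all genes. The transcription factor genes Zfp488 and Nkx6-2 stayed below the filter.

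Of 16 other myelin genes, 15 were in the table and 6 were tested over all lines: 4 rose, 1 fell and 1 did not pass, beside 42.1% of all genes higher and 39.8% lower. Among those that rose, Aspa, the enzyme that cleaves N-acetylaspartate, gained 1.64 (limma, adjusted p = 2.23e-06), whereas Ugt8a, which makes galactolipids of myelin, fell by 1.84 (adjusted p = 3.65e-09). Tspan2 gave -0.22 (adjusted p = 0.105). Mal, a membrane protein of myelin, was 1.97 to 3.00 in NSCs and 3.58 to 5.90 in astrocytes, and as it reached the filter in astrocytes alone its call was fixed by the filter. The remaining 9 were below the filter in every library, among them genes restricted to myelinating cells: Mog between -1.44 and -1.04, Mag between -1.85 and -1.57, Mobp between -1.53 and -0.86, and Ermn between -2.14 and -2.06. Opalin, Cldn11, Gal3st1, Fa2h and Ppp1r14a were the others. A rise of Cnp and Aspa thus stood beside 9 myelin genes that did not reach the filter in any library.

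For the change in tdTomato against hippocampal cultures, 2 of the 6 tested were higher and 2 lower, beside 19.4% and 25.9% of all genes, with Mal (-1.25) and Ugt8a (-0.82) lower. In EYFP against hippocampal cultures 3 of 6 were higher and 0 lower, beside 17% and 21%. Aspa was among those that were higher in both. It was 3.60 to 4.89 in all NSCs, 6.55 to 6.77 in tdTomato, 6.43 to 6.50 in EYFP and 4.86 to 4.98 in hippocampal astrocytes. Its rise was larger than in the hippocampal line by 1.82 in tdTomato and by 1.21 in EYFP cultures (limma, adjusted p = 0.000149 and 0.00545). Of the committed-stage genes 3 of 10 were higher and 3 lower in tdTomato against hippocampal, and 3 and 2 in EYFP against hippocampal cultures. For Enpp6 the difference was 1.53 and 1.48 (adjusted p = 0.000319 and 0.000513). Enpp6 reached the filter in 1 of the 9 NSC libraries and in all astrocytes, so its rise within a line was fixed by the filter, while the order of the lines as astrocytes was not.

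**Figure D4:**
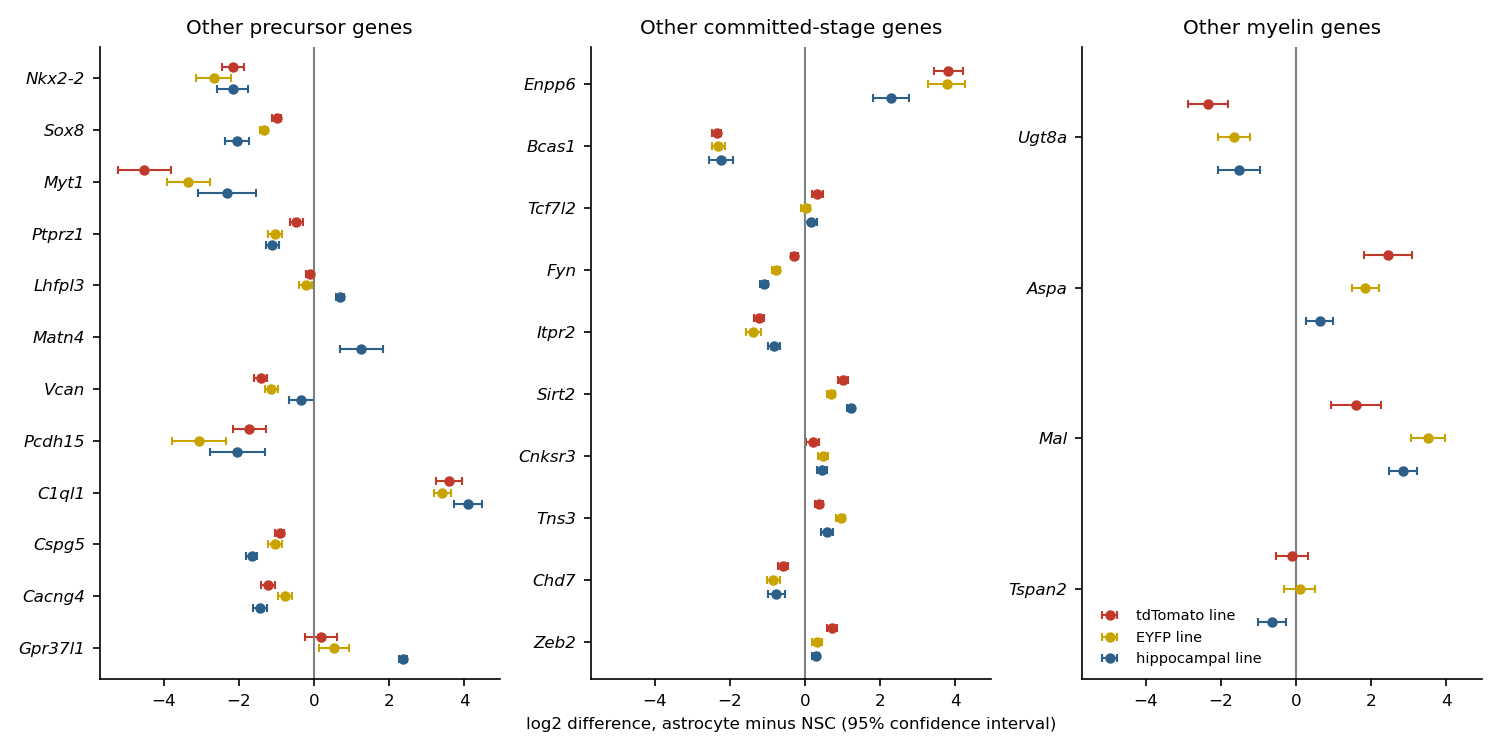
Log2 difference between astrocytes and NSCs of each line (x axis) with 95% confidence intervals from limma for genes of 3 further lists that reached the filter over all lines: precursor genes, committed-stage genes and myelin genes (y axis); a missing point means that the gene did not reach the filter in that line. Myt1, Nkx2-2, Pcdh15 and Sox8 lie left of 0, Aspa right of 0, and Aspa and Enpp6 differed least between fates in the hippocampal line.

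Of 10 known inhibitors of oligodendrocyte differentiation, all were tested over all lines, 7 rose and 2 fell, beside 42.1% of all genes higher and 39.8% lower. The median difference was 0.82 against 0.02 over all genes. The Id genes, direct BMP targets whose products bind helix-loop-helix factors, rose in each line, by 4.33 for Id4, 2.87 for Id1, 2.16 for Id2 and 2.06 for Id3 over all lines (limma, adjusted p = 1.13e-15, 6.75e-15, 4.34e-12 and 4.05e-12). Hes1 fell by 1.19 (adjusted p = 1.08e-08). Hes5 did not pass over all lines (-0.35, adjusted p = 0.397), and the lines went apart. It rose by 1.32 in the tdTomato line and fell by 2.26 in the hippocampal line (adjusted p = 0.000639 and 8.46e-06).

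Genes of the platelet-derived growth factor family were present in both fates. Pdgfa, a ligand of Pdgfra, was between 8.57 and 9.23 in NSCs and between 8.86 and 9.89 in astrocytes, and it fell by 0.25 in the tdTomato line but rose by 0.42 and 0.75 in the EYFP and hippocampal lines (limma, adjusted p = 0.0113, 0.000291 and 4.97e-05). Pdgfc, another such ligand, rose by 1.12, and Pdgfd, which acts on the receptor Pdgfrb, by 3.39 over all lines (adjusted p = 3.11e-10 and 1.76e-15). Pdgfb was below the filter in every library.

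Markers of other cell types were examined over all lines as well, where 42.1% of all genes were higher and 39.8% lower. The counts of fibroblast and Schwann cell markers below are near these shares. The part of these cell types in the results above was not tested. Of 8 astrocyte markers 7 rose over all lines, and their summed level was 15.06 to 16.23 in NSCs and 17.24 to 17.98 in astrocytes. Of 6 pericyte markers 4 were tested and were higher in astrocytes, with Kcnj8 (4.55) and Rgs5 (3.57) first. These 4 reached the filter in at most 1 NSC library, so they entered through the astrocytes and had to differ, and their values are a description. The summed level went from between 4.04 and 4.78 to between 7.44 and 9.52, highest in hippocampal astrocytes. The defining pericyte genes Pdgfrb, between -0.83 and 0.01, and Anpep, between -0.49 and 0.21, stayed below the filter in every library. Of 6 fibroblast markers 3 were tested, 1 rose and 1 fell, and the summed level was 4.84 to 6.85 in NSCs and 4.46 to 6.30 in astrocytes. Lum, the 1 that rose, was tested in no pair of NSC groups and entered through astrocytes, so its rise is a description. The summed level was highest in the tdTomato line, and Dcn, Col1a2 and Slc6a13 were below the filter in every library. Of 6 Schwann cell markers 4 were tested, 2 rose and 1 fell, with a summed level of 11.13 to 12.16 in NSCs and 9.78 to 10.68 in astrocytes. Of the 6, 2 stayed below the filter in every library. Ncmap, 1 of the 2 that rose, was tested by line in the tdTomato line alone and in no pair of NSC groups. Its rise is therefore a description. Of 6 neuronal markers 4 were tested and 3 rose, the summed level going from between 7.27 and 8.16 to between 8.43 and 8.88, while Stmn2 was below the filter throughout. None of the 5 microglial markers in the table was tested, and Aif1 lay between -2.15 and -2.05.

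The weaker progenitor genes varied together between replicate astrocyte cultures, a pattern that was seen after the values were known and that has no test. Gpr17 and Pdgfra both had their lowest value of the tdTomato line in astrocyte replicate 1 (Gpr17 level with replicate 2), of the EYFP line in replicate 2 and of the hippocampal line in replicate 1. The precursor genes Myt1 and Pcdh15 were lowest in the same 3 libraries. For Myt1 these were 4.66, 5.30 and 5.74, while the other 6 astrocyte libraries held 4.97 to 7.30. Mki67, a gene of dividing cells, was also lowest in these libraries (6.43, 6.42 and 6.64 against 6.51 to 7.15), but Top2a, another such gene, had its lowest value there in the EYFP line alone. Olig2 shared the pattern in the tdTomato and hippocampal lines, with 12.28 and 11.65, and Cnp in the EYFP and hippocampal lines, with 12.89 and 12.98.

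**Figure D5:**
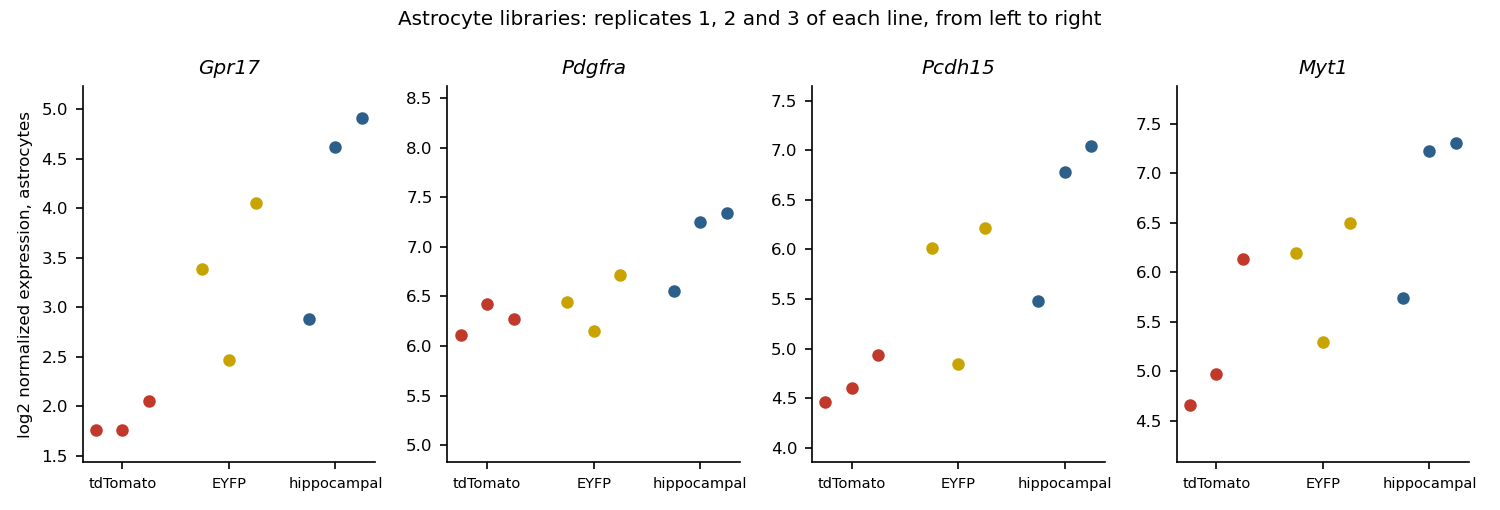
Log2 normalized expression (y axis) of Gpr17, Pdgfra, Pcdh15 and Myt1 in the astrocyte libraries of the 3 lines (x axis), with 1 point per library, replicates 1, 2 and 3 of each line from left to right, and y axes of the same span. Replicate 1 of the tdTomato and hippocampal lines and replicate 2 of the EYFP line hold the lowest value of their line in each panel, with a tie for Gpr17 in the tdTomato line.

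As a description of their profiles, the genes most like each of the 8 tested members over the 18 libraries were found by Pearson correlation among 15448 genes. All libraries of a fate share a medium and a day of collection, so a high r is common for any gene that changes with fate, and no test is given. The closest were Bub1b and Mastl for Olig2 (r = 0.995 and 0.994), Slc38a3 and Slc25a5 for Olig1 (0.985 and 0.984), Plk2 and 9230105E05Rik for Cspg4 (0.986 and 0.984) and Dag1 and Atp2b4 for Cnp (0.989 and 0.988). Those for Myrf were Fnbp1l and Kctd12 (0.968 and 0.967), for Mbp Slc12a8 and Btbd7 (0.952 and 0.951), for Pdgfra Slc6a11 (0.951) and for Gpr17 Src and Samd4b (0.88 and 0.871). No pair of members was among these.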

How the data were processed

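RNA of 18 cultures was sequenced by the authors as single-end reads of 76 bases, per the labels. Reads were trimmed, aligned and counted per gene with Trimmomatic (0.36), STAR (2.5.2) and RSEM (1.3.0) on GRCm38 and normalized with DESeq2 (1.18.1), per the submitters' processing notes. The deposited table holds log2 values, 29.4% of them negative, for 27997 genes. The log transform is not named in the sources used here, counts cannot be recovered from it, and the depth of each library is not given there. The labels state a minimum of 25 M reads.

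Groups and replicate numbers came from the sample labels. Differences were tested on the deposited values with limma (3.58.1, R 4.3.3; trend in the variance, two-sided) and Benjamini-Hochberg adjustment over all genes tested: fates over 18 libraries with line as a covariate, fates within a line and lines within a fate (6 libraries each), and interactions over 18. The tests were tested on simulated data. The alternatives were no filter, a filter of 100 before the log, quantile normalization, centring on library medians, no trend, 1 or 10 added before the log, a replicate block, 6 groups fitted over all 18 libraries, and each library left out in turn. Annotation is GENCODE M21 on GRCm38. Shared 75-base windows were counted between annotated transcripts.

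The 9 genes and the other lists were chosen with earlier results of these data known. All 9 are named. Of the other precursor and myelin genes any may be named, of the remaining lists the up to 4 with the largest change past the threshold, and for each tested member the 2 genes with the highest correlation. Pdgfa, Pdgfb, Hes5 and the defining markers that stayed low were named after their values were seen. A few genes of these lists enter the counts and summed levels but are not reported here by name.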

Additional observations from a re-analysis of the deposited data

Results flagged for a closer look

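The change from NSC to astrocyte differed between lines for Olig1, Olig2, Myrf, Cspg4 and Cnp in at least 1 pair of lines, by a test of the difference itself (limma, interaction over 18 libraries). Of all genes tested 45.3% passed for tdTomato against hippocampal, 38% for EYFP against hippocampal and 13.3% for tdTomato against EYFP, so passing is common. Against the hippocampal line, the log2 change in the tdTomato line was higher by 1.27 for Olig1, 0.67 for Olig2 and 2.40 for Myrf, and the difference was -0.35 for Cnp and -2.21 for Mbp. In the EYFP line it was higher by 0.92 for Olig1, 0.43 for Olig2 and 2.65 for Myrf, and the difference was -0.33 for Cspg4, -0.46 for Cnp and -2.55 for Mbp. Between the traced lines, the difference was 0.35 for Olig1 and 0.47 for Cspg4, tdTomato minus EYFP. Both comparisons with the hippocampal line use the same hippocampal libraries. Mbp reached the filter through the hippocampal astrocytes alone, so its values are a description and not a tested difference. Groups of 3 libraries are too small for a search for single outlying libraries, and none was made.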

How the results depend on the processing

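Of 95 differences of single genes tested, 63 passed the threshold, none of these changed direction under any alternative, and 8 missed the threshold under at least 1. Those were Cnp (change, tdTomato minus hippocampal, 6 alternatives; tdTomato minus EYFP astrocytes, 2), Cspg4 (EYFP minus hippocampal astrocytes, 7), Myrf (EYFP minus hippocampal NSCs, 5), Olig1 (change, tdTomato minus EYFP, 8) and Pdgfra (EYFP minus hippocampal NSCs, 1, and astrocytes, 8; tdTomato minus hippocampal astrocytes, 1). Another 8 that had not passed did so under at least 1 alternative. The number of the 9 genes that passed in tdTomato minus EYFP astrocytes went from 2 to 1 without the filter and without the trend, and in the interaction of these lines from 2 to 1 with quantile normalization. Leaving out each library gave 3 to 6 genes for EYFP minus hippocampal astrocytes, 3 to 5 for the interaction of tdTomato with hippocampal and 1 to 2 for that of tdTomato with EYFP. Differences that had not passed and changed sign were, with quantile normalization, Mbp over all lines (-0.26), Gpr17 in the hippocampal line (-0.34), Olig2 in tdTomato minus hippocampal NSCs (-0.00404) and Gpr17 in the change, tdTomato minus EYFP (-0.00289), and with median centring Olig2 in tdTomato minus hippocampal NSCs (-0.0143). With each library left out, the ranges that crossed 0 were -0.16 to 0.17 for Mbp over all lines, -0.36 to 0.65 for Gpr17 in the hippocampal line, -0.011 to 0.056 for Olig2 in tdTomato minus hippocampal NSCs, -0.11 to 0.021 for Olig2 and -0.054 to 0.020 for Cspg4 in tdTomato minus EYFP NSCs, -0.069 to 0.11 for Cnp in EYFP minus hippocampal astrocytes and -0.33 to 0.46 for Gpr17 in the change, tdTomato minus EYFP. Over all genes, calls went from 4748 to 2970 without the filter for tdTomato minus EYFP NSCs (2719 at the lowest with a library left out), from 1641 to 975 for the same pair of astrocytes (936 at the lowest), and from 2060 to 1317 for the interaction of this pair without tdTomato NSC replicate 3. Median centring moved the share of calls that were higher from 42.9% to 56.6% for the change in tdTomato minus hippocampal and from 44.7% to 55.1% for EYFP minus hippocampal. Replicate numbers were not taken to pair the cultures, since in no comparison was every same-numbered pair correlated at over 0.1 (means of -0.0404 to 0.214). In every comparison between lines, however, all same-numbered pairs were above 0 and their mean was above that of the other pairs. In EYFP minus hippocampal astrocytes the means were 0.107 and -0.0535. In tdTomato minus EYFP astrocytes the pairs lay between 0.0598 and 0.313, above the other pairs at -0.107 on average. Partial pairing between lines is therefore possible, most clearly there. With a replicate block no call of the 9 genes was lost, 1 was gained (Olig1, tdTomato minus EYFP astrocytes, 0.25, adjusted p = 0.00818), and calls over all genes in that comparison went from 1641 to 3049. The cause of these shifts was not tested. The table does not give the depth of each library, and for Sox10, Mbp and Gpr17 the level itself limits what can be seen.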
